A study of Rattus norvegicus with 24 samples.

Results

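The change in hippocampal gene expression of rats from 24 h to 48 h after ischemia caused by an operation was examined over 8 arrays of the 24 in the series. The series measured RNA of whole hippocampus on Affymetrix rat U34 A arrays in an arm called SHAM, described as sensitive to hypoxia, and an arm called TOL, described as tolerant of it, at 0, 1, 3, 12, 24 and 48 h. The members were the arrays labelled SHAM or TOL at 24 h (4 arrays) and at 48 h (4 arrays), with 2 arrays in each arm at each time. Each arm was compared with itself, and the 4 arrays at 0 h served for reference only. Strain, age, sex, the hippocampal subfield and the kind of operation or pretreatment are not stated in the labels, so that the arms are known only by these descriptions. No label ties the 2 arrays of a group to separate animals, and p-values then measure no more than how these samples vary, possibly for technical reasons.

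Ischemia is an interruption of blood flow, and the pyramidal neurons of the hippocampus are among the cells that die after it with a delay. Before and during that time cells make heat shock proteins, which bind unfolded proteins, and microglia and astrocytes, the brain's resident macrophages and its main support cells, change state around the damaged neurons. The step from the first to the second day was therefore described along the lines of neuronal loss, glial rise and decay of the stress response.

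Levels are normalised intensities in arbitrary units. A log2 difference is 48 h minus 24 h, averaged over both arms unless an arm is named, with limma's moderated test and Benjamini-Hochberg adjustment over 7092 probe sets, and a gene is said to have risen or fallen where its adjusted p was under 0.05. The noise level was 41.2 units, and a level below it is background. The deposited array medians were 57.9 to 85.6 units, and 21.9% to 23.2% of the values of an array lay at or below 0. The 2 arrays of each group had r = 0.922 to 0.954 over the probe sets, with a median SD of 0.163 (log2). Both SHAM arrays at 24 h and replicate 1 at 48 h were hybridised on the first day in 1 inferred fluidics run, while SHAM 48 h replicate 2 was hybridised on the second day. The 4 TOL arrays shared 1 run of the second day, whose fluidics record reads as aborted by the user, so that the step in TOL lies within 1 run.

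Over the 4083 genes tested, 139 rose (3.4%) and 178 fell (4.36%) from 24 h to 48 h. Of the genes that rose, 41 did so by more than 1 on the log2 scale, and 42 of those that fell did so by as much. These sizes were taken with a floor of 3.49 units, so they can include changes below the noise level. Of the 536 called probe sets, 36 lay under the noise level on all 8 arrays. In 248 genes (6.07%) all 4 arrays at 48 h lay above all 4 at 24 h, and in 291 (7.13%) all lay below. The step differed between the arms by the test of the difference in 4 genes (0.098%) and 10 probe sets (0.141%). Over probe sets, of which 536 were called (7.56%), the count was 294 when leaving out SHAM 24 h replicate 1, 281 without TOL 24 h replicate 1 and 297 without TOL 24 h replicate 2, and between 367 and 547 without any other array. Of 104 called genes among those named by rule or as list members, 20 kept their call in every alternative fit that gave a value and without each array in turn. They were Chordc1, Dnaja1, Dnajb1, Hspd1, Hspe1, Hsph1 and Stip1 of the chaperones, Tspo, RT1-DMb, Aldh1l1, Top2a, Prdx1, Cck, Rgs4, Arc and Dusp6 of other lists, and Ate1, Azi2, Entpd2 and Per2. The calls of 59 were lost with values as deposited and those of 69 with the 8 arrays alone. Calls among the 104 other than these 20 were thus lost in at least 1 fit, also where the loss is not repeated below.

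Chaperone genes fell. Of 33 heat shock protein and chaperone genes tested, 12 fell and none rose, or 36.4% against 4.36% of all genes, and the median log2 difference was -0.35 against 0 over all genes. The summed level of the 33 genes was 46513 to 52988 units at 24 h and 27771 to 31590 at 48 h, with no overlap. At 0 h it had been 20419 to 22198 units, so the 48 h arrays still lay above the 0 h arrays. Leaving out 1 array at a time gave 10 to 12 falls and at most 1 rise.

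Promoter stretches are shown for those chaperone genes that fell and held the motif below. The heat shock factor that drives such genes binds repeats of a short unit in their promoters. The motif searched was 3 alternating units, GAANNTTCNNGAA or its reverse complement TTCNNGAANNTTC, on both strands and in any overlap, in RefSeq windows of 300 bases (250 before and 50 after each gene's start, rat build GRCr8). It occurred in 267 of 33469 windows (0.798%). Of the 33 chaperone genes 27 matched a window, and 6 of these held the motif (22.2%). They were 5 of the 12 genes that fell and 1 of 15 that did not pass the test, Serpinh1. The other genes that fell, without the motif in their window, were Hspa1a, Stip1, Dnajb1, Fkbp4, Hspa9, Hsp90ab1 and Dnajc5. The matched stretches of the 5 genes with 8 bases on each side are given 5′ to 3′ on the strand of the gene, with the bases inside a match in capitals.
Hspd1: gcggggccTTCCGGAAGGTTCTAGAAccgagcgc
Hspe1: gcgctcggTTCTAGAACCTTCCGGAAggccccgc
Chordc1: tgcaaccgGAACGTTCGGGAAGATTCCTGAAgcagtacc
Dnaja1: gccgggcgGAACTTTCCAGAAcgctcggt
Hsph1: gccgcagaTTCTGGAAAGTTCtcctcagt

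Hspd1 and Hspe1, which encode the mitochondrial chaperone Hsp60 and its co-chaperone Hsp10, lie head to head on chromosome 9, their starts 290 bases apart, and their windows share 211 bases. Both stretches printed for them are therefore the same DNA, chr9:64084254-64084287, read on opposite strands. The stretch of Chordc1 lies at chr8:23650823-23650861, that of Dnaja1 at chr5:60638405-60638433 and that of Hsph1 at chr12:10427324-10427352, all on the plus strand. The 250 bases before the start of Hspe1 (chr9:64084077-64084326, plus strand) show the match, at -65 to -48 from the start, within the interval between both genes.
Hspe1: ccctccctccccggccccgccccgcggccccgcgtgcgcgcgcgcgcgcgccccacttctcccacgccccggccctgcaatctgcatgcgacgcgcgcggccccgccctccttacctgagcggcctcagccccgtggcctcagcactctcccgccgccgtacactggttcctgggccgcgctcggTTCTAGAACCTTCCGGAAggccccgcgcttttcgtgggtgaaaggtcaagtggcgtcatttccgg

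Hspd1 read 5604 and 4533 units at 24 h and 1837 and 1903 at 48 h in SHAM, and 4689 and 4763 at 24 h and 2103 and 1913 at 48 h in TOL. All 48 h arrays lay below all 24 h arrays, with means of 4897 ± 481 and 1939 ± 114 units (SD, n = 4), a 2.53-fold fall (log2 difference -1.33, SE 0.11, adjusted p = 1.17e-05). Hspe1 read 4975 and 3726 units at 24 h and 1459 and 1479 at 48 h in SHAM, and 3563 and 3871 at 24 h and 1869 and 1623 at 48 h in TOL, and it fell 2.51-fold with no overlap of the arrays (log2 difference -1.32, SE 0.12, adjusted p = 2.73e-05). At 0 h the means of this pair had been 1110.4 ± 31.3 and 1332 ± 301 units (SD, n = 4), so that at 48 h Hspd1 stood at 1.75 times and Hspe1 at 1.21 times its 0 h level. The arrays of Hspe1 at 48 h overlapped those at 0 h, while those of Hspd1 lay above them.

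Hspa1a encodes the inducible Hsp70, the general folding chaperone of stressed cells, and its probes may also read its close copy Hspa1b. Its arrays read 4019 and 4649 units at 24 h and 1529 and 1585 at 48 h in SHAM, and 4248 and 4352 at 24 h and 1681 and 1529 at 48 h in TOL. The fall was 2.73-fold (log2 difference -1.45, SE 0.28, adjusted p = 0.00721), the arrays of each time lying close together and the times far apart. The call was lost with values as deposited. Its mean at 0 h, 17 ± 8.17 units, was below the noise level, so the 48 h level was still at least 38.4-fold above 0 h, after at least 105-fold at 24 h. All 4 arrays at 48 h lay above all 4 at 0 h.

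Several cofactors of Hsp70 and Hsp90 fell as well, while others of the list did not pass, among them St13 (log2 difference -0.40, adjusted p = 0.0847), Cdc37 (-0.19, 0.353), Dnaja2 (-0.35, 0.2), Hspa4 (-0.54, 0.592) and Ppid (0.03, 0.975), named after their values were seen. Hsph1 (Hsp110, a nucleotide exchange factor of Hsp70) read 6965 and 6775 units at 24 h and 3563 and 3306 at 48 h in SHAM, and 5863 and 5651 at 24 h and 2943 and 3726 at 48 h in TOL, a 1.87-fold fall that left it at 3.31 times its 0 h level (log2 difference -0.90, SE 0.12, adjusted p = 0.000377). Dnajb1, an Hsp40 that hands clients to Hsp70, fell 2.10-fold from 1055 ± 82.6 to 503 ± 38.8 units (log2 difference -1.07, SE 0.12, adjusted p = 0.000163). Its relative Dnaja1 fell 2.00-fold from 3879 ± 662 to 1936 ± 130.5 units (log2 difference -0.99, SE 0.12, adjusted p = 0.000273). In all 3 genes the 24 h and 48 h arrays did not overlap, and all 48 h arrays still lay above those at 0 h.

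Chordc1 and Stip1 encode co-chaperones of Hsp90, Stip1 being the adaptor that joins it to Hsp70. Chordc1 read 1315 and 880.4 units at 24 h and 342 and 359.7 at 48 h in SHAM, and 1068 and 1113 at 24 h and 398 and 387 at 48 h in TOL, the largest fall of the list at 2.94-fold (log2 difference -1.55, SE 0.14, adjusted p = 2.73e-05). At 48 h it stood at 1.12 times its 0 h mean, and the arrays of both times overlapped. Stip1 fell 2.15-fold, from 697 ± 116 to 324 ± 49.8 units (log2 difference -1.10, SE 0.12, adjusted p = 0.000104), and stayed above all 0 h arrays.

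The remaining falls of the list were smaller. Fkbp4, an immunophilin of the Hsp90 complex, changed by -0.64 on the log2 scale (adjusted p = 0.00757), Hspa9, the mitochondrial Hsp70, by -0.62 (0.0485), Dnajc5, a synaptic vesicle chaperone, by -0.33 (0.0324), and Hsp90ab1, the constitutive Hsp90, by -0.30 (0.0115). The call of Hspa9 was lost when any 1 array other than SHAM 24 h replicate 2 and SHAM 48 h replicate 1 was left out (adjusted p up to 0.176). That of Dnajc5 was lost when any 1 array other than TOL 24 h replicate 1 was left out (adjusted p up to 0.131), and that of Hsp90ab1 when TOL 24 h replicate 1 was left out (adjusted p = 0.0545). Of the 12 genes that fell, 11 had all 24 h arrays above all 0 h arrays, Hsp90ab1 being the exception, and 8 still had all 48 h arrays above them. These genes were picked for a fall after 24 h, which favours high values at 24 h. No such share was taken over all genes. The small heat shock protein Hspb1 read 2539 and 2552 units at 24 h and 1735 and 1103 at 48 h in SHAM, and 2583 and 2849.8 at 24 h and 2673 and 1326 at 48 h in TOL and did not pass the test (adjusted p = 0.0886), with 1 of the TOL arrays at 48 h among the values of 24 h. Hspa5, the Hsp70 of the endoplasmic reticulum, differed by -0.03 (adjusted p = 0.948), and of 21 endoplasmic reticulum stress genes 1 fell (4.76% against 4.36% of all genes) and none rose. That gene, Ero1b, makes disulfide bonds, and its call (adjusted p = 0.0428) was lost when any 1 of the 8 arrays was left out (adjusted p up to 0.136).

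**Figure D1:**
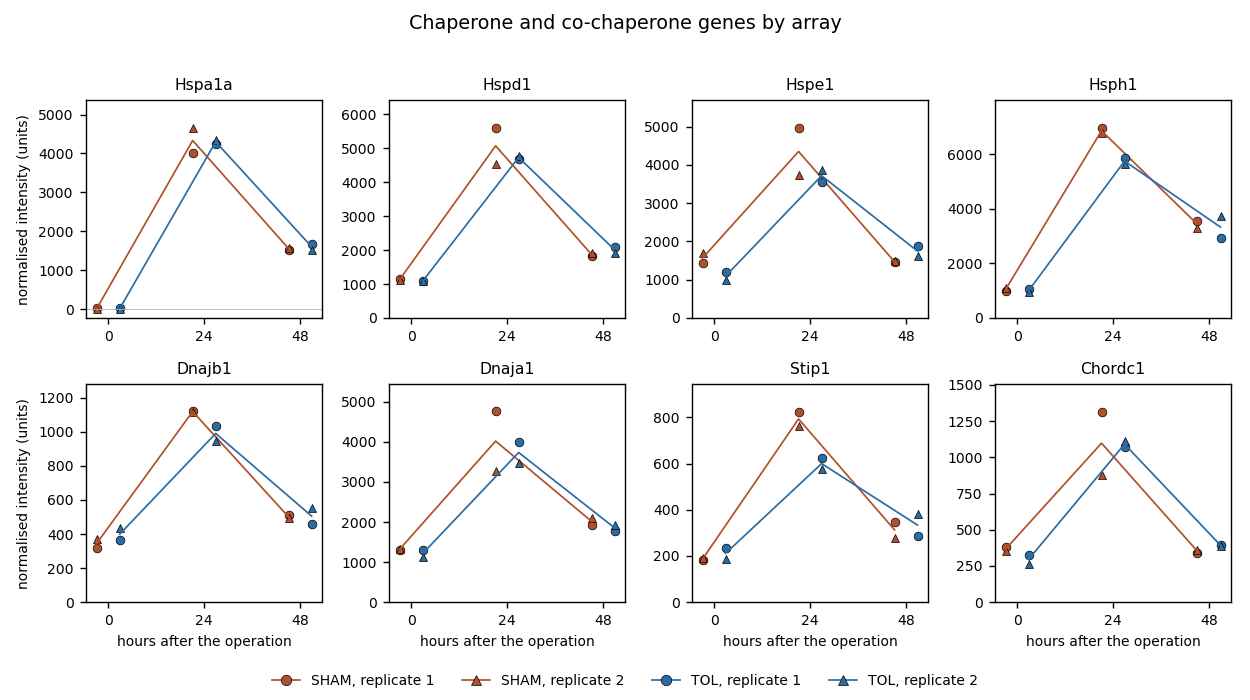
Normalised intensity (units, linear axis from 0) of 8 chaperone and co-chaperone genes against hours after the operation (0, 24 and 48 h). Each point is 1 array, circles for replicate 1 and triangles for replicate 2, and lines join the means of an arm (SHAM red, TOL blue). All 8 fell from 24 h to 48 h in both arms without overlap, and Chordc1 and Hspe1 reached the range of 0 h while Hspa1a and Hsph1 did not.

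Microglial and macrophage genes rose. Of 31 such genes tested, 15 rose and none fell, or 48.4% against 3.4% of all genes, with a median log2 difference of 0.70 (0.50 with levels set to at least the noise level). Without 1 array at a time the list held 10 to 14 rises and at most 1 fall. The rises numbered 6 with values as deposited and 4 with the arrays at 24 h and 48 h alone. In 18 of the 31 genes all 48 h arrays lay above all 24 h arrays, against 248 of all 4083 genes (6.07%). The summed level of the list was 9132 to 9662 units at 24 h, close to the 8772 to 9239 units at 0 h, and 11720 to 17915 units at 48 h. At 48 h the lowest sum was that of SHAM replicate 2. In whole tissue, more cells of a type and more RNA per cell cannot be told apart, and the same holds for fewer cells and less RNA.

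Spp1 encodes osteopontin, a secreted protein of activated microglia and macrophages. Its arrays read 43.5 and 39.3 units at 24 h and 774 and 73.2 at 48 h in SHAM, and 53.3 and 33.1 at 24 h and 682 and 634 at 48 h in TOL. The 4 arrays at 48 h lay above those at 24 h, of which 2 exceeded the noise level, but SHAM replicate 2 was far below the other 3. The log2 difference was 3.25 (SE 0.49, adjusted p = 0.00111), and Spp1 was the largest rise of the step at 12.1-fold with levels set to at least the noise level. Its call was lost with the 8 arrays alone. The step passed the test in TOL (adjusted p = 0.00849) and not in SHAM (0.067), and the difference between arms did not (adjusted p = 0.853).

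Tspo, the mitochondrial translocator protein that marks reacting glia in imaging, read 60.8 and 103 units at 24 h and 378 and 174 at 48 h in SHAM, and 72.8 and 79.7 at 24 h and 752 and 473 at 48 h in TOL. It rose 5.61-fold with no overlap (log2 difference 2.33, SE 0.34, adjusted p = 0.000983). Lyz2, the lysozyme of macrophages, rose 3.24-fold from 214 ± 28.5 to 691 ± 341 units (log2 difference 1.56, SE 0.29, adjusted p = 0.00472). It read 253 and 212 units in SHAM and 205 and 185 in TOL at 24 h. At 48 h the arrays read 789 and 335 units in SHAM and 1119.9 and 522 in TOL, so the 2 arrays of each arm differed by a wide margin. The Lyz2 call was lost with the 8 arrays alone.

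C1qb, a chain of the complement starter C1q that microglia make, read 309 and 360.4 units at 24 h and 948 and 635 at 48 h in SHAM, and 343 and 406 at 24 h and 1405 and 1059 at 48 h in TOL. It rose 2.85-fold (log2 difference 1.46, SE 0.32, adjusted p = 0.0132). Its call was lost when SHAM 24 h replicate 1, SHAM 48 h replicate 1 or TOL 24 h replicate 1 was left out (adjusted p up to 0.0542), and its log2 difference stayed between 1.32 and 1.61. C1qc, another chain, was below the noise level on all 24 h arrays and read 43.2 and 130.0 units in SHAM and 57.3 and 97.2 in TOL at 48 h, at least 1.99-fold higher (adjusted p = 0.0167). The C1qc call was lost when any 1 array other than SHAM 24 h replicate 2, SHAM 48 h replicate 1 and TOL 48 h replicate 1 was left out (adjusted p up to 0.0724).

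Smaller rises came from other genes of the list. Aif1, which encodes the microglial marker Iba1, read 98.9 and 94.5 units at 24 h and 172 and 145 at 48 h in SHAM, and 94.4 and 88.7 at 24 h and 171 and 152 at 48 h in TOL. It rose 1.70-fold, the arrays of each time lying close together (log2 difference 0.76, SE 0.12, adjusted p = 0.00119). The lysosomal protease gene Ctss rose 1.60-fold (log2 difference 0.66, SE 0.13, adjusted p = 0.00655), Ctsd, another lysosomal protease, 1.52-fold (adjusted p = 0.00599), and Grn, which encodes the lysosomal growth factor progranulin, 1.63-fold (adjusted p = 0.00201). The leukocyte tetraspanin Cd53 rose 1.97-fold (adjusted p = 0.00266) and the leukocyte actin regulator Coro1a 1.93-fold (adjusted p = 0.0142). In these 6 genes the arrays of both times did not overlap, and the Coro1a call was lost when TOL 24 h replicate 2 or TOL 48 h replicate 2 was left out (adjusted p up to 0.0566). Each of the 6 calls was also lost under another setting, that of Aif1 with values as deposited, that of Cd53 with the 8 arrays alone, and those of Ctss, Ctsd, Grn and Coro1a with either.

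Of the 15 called genes, 10 had 24 h arrays that overlapped the 0 h arrays and 14 had all 48 h arrays above them. These genes were picked for a rise to 48 h, which favours high values at 48 h. No such share was taken over all genes. Of the defining microglial markers, Itgam and Csf1r were below the noise level on all 8 arrays, and Ptprc, the pan-leukocyte marker Cd45, differed by -0.48 (adjusted p = 0.193). P2ry12 and Cx3cr1, receptors of resting microglia that were named after their values were seen, differed by 0.14 and 0.19 (adjusted p = 0.709 and 0.831). Lgals3 and Cyba, a lectin and an oxidase subunit of activated macrophages, rose from below the noise level on all 24 h arrays, with 3 and 1 of the 48 h arrays above it (adjusted p = 0.0249 and 0.00343), and the Lgals3 call was lost when any 1 array other than SHAM 24 h replicate 2 and SHAM 48 h replicate 2 was left out (adjusted p up to 0.0913). Lipa and Cd63, of the lysosome and its membrane, changed by 0.31 and 0.50 on the log2 scale, and each call was lost without most of the arrays in turn (adjusted p up to 0.107 and 0.156).

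Reactive glia and scar genes rose with 12 of 39 called and none lower (30.8% against 3.4% of all genes, median log2 difference 0.51). The 48 h arrays summed to 5789 to 11936 units against 4695 to 5278 at 24 h, SHAM replicate 2 again being the lowest at 48 h. The count of 12 fell to 6 without SHAM 24 h replicate 1, TOL 24 h replicate 1 or TOL 48 h replicate 1, to 7 without TOL 48 h replicate 2 or SHAM 48 h replicate 1, and to 5 without TOL 24 h replicate 2. No member fell in any of these fits. Spp1, Tspo and Lgals3 are counted among the rises both here and in the microglial list.

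Serping1, the inhibitor of complement C1, read 114 and 122 units at 24 h and 232 and 135 at 48 h in SHAM, and 117 and 121 at 24 h and 331 and 347 at 48 h in TOL. It rose 2.20-fold (log2 difference 1.05, SE 0.14, adjusted p = 0.000633), with the 4 arrays at 24 h within a few units of each other and SHAM 48 h replicate 2 nearest to them. Ifitm3, an interferon-induced membrane protein, rose 2.32-fold from 329 ± 43.5 to 763 ± 212 units with no overlap (log2 difference 1.18, SE 0.19, adjusted p = 0.00151). S100a4, a calcium-binding protein of reactive astrocytes and leukocytes, rose 1.95-fold (log2 difference 0.92, SE 0.16, adjusted p = 0.00393). Its call was lost with values as deposited or with the 8 arrays alone, and those of Serping1 and Ifitm3 with the 8 arrays alone.

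Lcn2 encodes lipocalin 2, an acute phase protein of reactive astrocytes and neutrophils. It read -67.8 and -30.7 units at 24 h and 472 and -14.7 at 48 h in SHAM, and -32 and -59.1 at 24 h and 895 and 361 at 48 h in TOL, so that 3 of the 48 h arrays exceeded the noise level and no 24 h array did. At 48 h it was at least 10.4-fold higher than at 24 h (adjusted p = 0.034). The call was lost when any 1 array other than SHAM 48 h replicate 2 was left out (adjusted p up to 0.11). Serpina3n, an acute phase protease inhibitor of reactive astrocytes, was likewise below the noise level at 24 h and rose at least 4.51-fold (adjusted p = 0.0102), a call lost when TOL 24 h replicate 2 was left out (adjusted p = 0.0503). Timp1 and Anxa5, a protease inhibitor and a membrane-binding protein, were called with log2 differences of 0.64 and 0.37. Cd44, an adhesion receptor, was called too, but its means at 24 h and 48 h were below the noise level, so no fold is given. The Cd44 call was lost with a floor at the noise level. Each of these calls was also lost without 4 or more arrays in turn. Vim, the intermediate filament vimentin, named after its values were seen, read 217 ± 48.8 and 591 ± 223 units with no overlap and did not pass the test (adjusted p = 0.063).

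Astrocyte genes rose in 5 of 22 cases and fell in none (22.7% against 3.4%), with a median log2 difference of 0.18. The count was 3 when replicate 2 of TOL at 24 h or at 48 h was left out and 4 without any other array. Aldh1l1, a folate enzyme that marks astrocytes, read 75.3 and 74.8 units at 24 h and 120.3 and 136 at 48 h in SHAM, and 90.1 and 88.1 at 24 h and 190.5 and 142 at 48 h in TOL. It rose 1.79-fold with no overlap (log2 difference 0.83, SE 0.10, adjusted p = 0.000277). Clu, the secreted chaperone clusterin, rose 1.32-fold (log2 difference 0.40, SE 0.08, adjusted p = 0.00618), and Glul, the glutamine synthetase of astrocytes, 1.22-fold (log2 difference 0.29, SE 0.07, adjusted p = 0.0298). Both calls were lost with values as deposited or with the 8 arrays alone. The Glul call was lost when any 1 array other than SHAM 24 h replicate 2 and SHAM 48 h replicate 1 was left out (adjusted p up to 0.116). Fabp7, a fatty acid binding protein of immature astrocytes, rose 1.76-fold (adjusted p = 0.0324), and its call was lost when any 1 array other than SHAM 24 h replicate 1 and TOL 24 h replicate 1 was left out (adjusted p up to 0.126). The potassium channel gene Kcnj10 was the remaining member called, with overlapping arrays. In SHAM Kcnj10 differed by -0.27 (adjusted p = 0.814), so its call rests on the TOL arrays. The Kcnj10 call was lost with a floor at the noise level. The glutamate transporters Slc1a2 and Slc1a3 differed by 0.16 and 0.09 (adjusted p = 0.695 and 0.624), S100b by 0.05 (0.802) and the water channel Aqp4 by 0.12 (0.819).

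**Figure D2:**
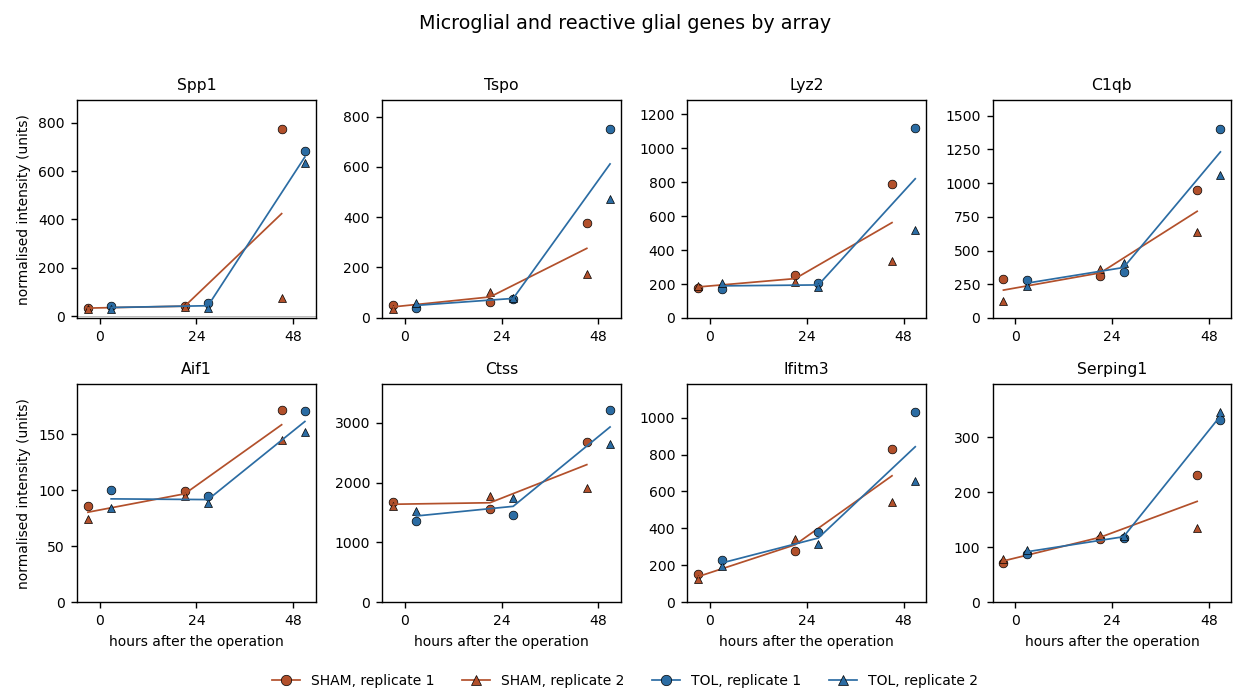
Normalised intensity (units, linear axis from 0) of 8 microglial and reactive glial genes against hours after the operation, 1 point for each array (circles replicate 1, triangles replicate 2; SHAM red, TOL blue; lines join arm means). The 24 h arrays overlap the 0 h arrays for Spp1, Lyz2, Aif1 and Ctss, and all lie above them for Tspo, C1qb, Ifitm3 and Serping1. The 48 h arrays lie above the 24 h arrays in all 8, with SHAM 48 h replicate 2 low for Spp1, Tspo, Lyz2 and Serping1.

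Complement, antigen presentation and interferon response genes rose in 8 of 30 cases and fell in none (26.7% against 3.4%, median 0.51). The count was 5 without SHAM 24 h replicate 1 or TOL 24 h replicate 1 and 6 to 9 without any other array. Ifngr1, a chain of the interferon gamma receptor, read 37.3 and 39.1 units at 24 h and 167 and 101 at 48 h in SHAM, and 76.5 and 72.1 at 24 h and 119.7 and 105 at 48 h in TOL. It rose by 1.18 on the log2 scale (SE 0.15, adjusted p = 0.000325), although in SHAM both 24 h arrays were below the noise level. RT1-DMb, a class II peptide loading chain, rose 2.69-fold from 88.5 ± 11.7 to 238 ± 48.8 units (log2 difference 1.42, SE 0.23, adjusted p = 0.00223), with both of its probe sets called, the other one below the noise level on all 8 arrays. RT1-M3-1, a class I gene, was called (adjusted p = 0.0473), and its call was lost when any 1 array other than SHAM 24 h replicate 2 and SHAM 48 h replicate 1 was left out (adjusted p up to 0.176). C1s, a protease of the C1 complex, rose 1.49-fold (adjusted p = 0.00677), a call lost with values as deposited or with the 8 arrays alone. RT1 genes form a family of close copies, whose probes may read more than 1 of them. Among the rises of the complement list, C1qb and C1qc are also counted in the microglial list. Serping1 and Ifitm3 are also counted in the reactive glial list, so the shares of these lists are not independent.

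Of 15 blood cell genes 1 rose (6.67% against 3.4% of all genes) and none fell, and of 10 choroid plexus and ependymal genes 1 rose (10% against 3.4%) and none fell. S100a8, the blood cell gene called, a calcium-binding protein of neutrophils and monocytes, read 14.2 and 45.1 units at 24 h and 325 and 79.5 at 48 h in SHAM, and 59 and 19.2 at 24 h and 422 and 144 at 48 h in TOL. It rose 5.20-fold with levels set to at least the noise level, which 2 of the 24 h arrays exceeded (log2 difference 2.77, SE 0.66, adjusted p = 0.0224), and the call was lost when SHAM 24 h replicate 1, SHAM 48 h replicate 1, TOL 24 h replicate 2 or TOL 48 h replicate 1 was left out (adjusted p up to 0.0984). Its partner S100a9 read 382 and -2.83 units in SHAM and 458 and 114 in TOL at 48 h and did not pass (adjusted p = 0.0706). The haemoglobin gene Hbb differed by 0.10 (adjusted p = 0.834).

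Ttr encodes transthyretin, the main product of choroid plexus epithelium. Its arrays read 336 and 180.4 units at 24 h and 4284 and 2808 at 48 h in SHAM, and 256 and 859 at 24 h and 4763 and 1429.5 at 48 h in TOL, and the 48 h arrays all lay above the 24 h arrays without passing the test (log2 difference 3.15, SE 1.07, adjusted p = 0.0998). The 10 choroid plexus and ependymal genes tested summed to 1267 to 2287 units at 24 h and 2954 to 7280 at 48 h, and the 0 h arrays ranged from 1684 to 6401. Of the defining markers, Enpp2 differed by 0.96 (adjusted p = 0.18) and Kl by 0.06 (0.849), and none was below the noise level. At 48 h replicate 1 had the higher sum in both arms for the choroid, microglial and reactive glial lists. The part of choroid plexus in the glial rises was not tested. Igfbp2, an insulin-like growth factor binding protein that stands on the choroid and reactive glia lists, rose 1.78-fold (adjusted p = 0.0487), and its call was lost when any 1 of the 8 arrays was left out (adjusted p up to 0.16).

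Proliferation genes rose in 8 of 33 cases and fell in none (24.2% against 3.4%), although the median of the list was 0.07. The count was 4 without TOL 24 h replicate 2, and 5 when either SHAM 48 h array or TOL 48 h replicate 1 was left out, with 1 fall in the fit without SHAM 48 h replicate 2. Top2a, the topoisomerase of dividing cells, read 38.9 and 55.1 units at 24 h and 188 and 204 at 48 h in SHAM, and 45.4 and 40.4 at 24 h and 215 and 164 at 48 h in TOL. All 48 h arrays lay far above the 24 h arrays, of which 2 exceeded the noise level (log2 difference 2.11, SE 0.27, adjusted p = 0.000377), and 1 of 3 Top2a probe sets was called.

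Genes of the replication helicase followed. Mcm6 read 73.7 ± 19.2 units at 24 h and 161 ± 12.9 at 48 h (SD, n = 4), a 2.18-fold rise on all 3 of its probe sets (log2 difference 1.16, SE 0.26, adjusted p = 0.0157). Its call was lost when SHAM 24 h replicate 2, SHAM 48 h replicate 1 or TOL 24 h replicate 2 was left out (adjusted p up to 0.0726). Mcm7 rose 1.57-fold (adjusted p = 0.0377), a call lost when any 1 array other than SHAM 24 h replicate 1 was left out (adjusted p up to 0.15). Cdk1 and Mcm5, the mitotic kinase and another helicase subunit, were called but lay below the noise level on all 8 arrays, so no fold is given. Tubb5, a tubulin of growing cells, rose 1.51-fold (log2 difference 0.59, SE 0.10, adjusted p = 0.00381), a call lost with values as deposited or with the 8 arrays alone. The cyclin Ccnd3 and its kinase Cdk4 changed by 0.48 and 0.47. The Ccnd3 call was lost when SHAM 24 h replicate 1, SHAM 48 h replicate 2, TOL 24 h replicate 2 or TOL 48 h replicate 1 was left out (adjusted p up to 0.0778), and the Cdk4 call when any 1 array other than SHAM 24 h replicate 2 was left out (adjusted p up to 0.186). Pcna, the sliding clamp of replication, differed by 0.47 (adjusted p = 0.151).

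Antioxidant genes rose in 5 of 32 cases and fell in none (15.6% against 3.4%, median 0.19). The count was 3 without TOL 24 h replicate 1 and 2 without TOL 24 h replicate 2. Prdx1, a peroxidase, read 634 and 626 units at 24 h and 1079 and 1019 at 48 h in SHAM, and 437 and 516 at 24 h and 1045 and 929 at 48 h in TOL. It rose 1.84-fold (log2 difference 0.89, SE 0.11, adjusted p = 0.000282). Gsta1, a glutathione transferase with close relatives, rose 1.58-fold on all 3 of its probe sets (log2 difference 0.66, SE 0.10, adjusted p = 0.00119). Nqo1, a quinone reductase, rose 2.24-fold with no overlap (adjusted p = 0.0239), but the call was lost when any 1 array other than SHAM 24 h replicate 2 was left out (adjusted p up to 0.0988). Prdx6, another peroxidase, changed by 0.35, a call lost when TOL 24 h replicate 2 was left out (adjusted p = 0.0573). Sod3, the extracellular superoxide dismutase, was called (adjusted p = 0.0206) with overlapping arrays, and the call was lost when SHAM 48 h replicate 2, TOL 24 h replicate 1, TOL 24 h replicate 2 or TOL 48 h replicate 1 was left out (adjusted p up to 0.0766). Hmox1, the stress-induced haem oxygenase, named after its values were seen, read 229 and 225 units at 24 h and 552 and 156 at 48 h in SHAM, and 189 and 230.3 at 24 h and 828 and 326 at 48 h in TOL and did not pass (adjusted p = 0.215), replicate 1 being the higher at 48 h in both arms.

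Neuronal genes showed no common shift over both arms in this step. Of 54 neuronal and synaptic genes, 4 fell (7.41% against 4.36% of all genes) and 1 rose (1.85% against 3.4%), and the median log2 difference was 0.07, 0.16 in SHAM and -0.09 in TOL, positive although most calls were falls. The number of falls was 3 without SHAM 24 h replicate 2, 2 without TOL 24 h replicate 1, 1 when either of the SHAM 48 h arrays was left out, and 0 without any of the other 4 arrays. The summed level was 40852 to 47839 units at 24 h and 41560 to 47304 at 48 h, so the times overlapped over both arms. In TOL the sums were 44292 and 47839 units at 24 h and 41560 and 41905 at 48 h, lower without overlap, while in SHAM they were 40852 and 44610 at 24 h and 44138 and 47304 at 48 h, and no test was made of these sums. At 0 h it had been 51106 to 54658 units, above all 8 later arrays. The 10 defining neuron markers, 9 of them tested, included 1 that fell, Hpca. None of 20 glutamate receptor genes was called by limma, with 1 higher and 1 lower at an unadjusted p under 0.05 (10% against 20.9% of all genes), and their sums were 3249 to 3571 units at 24 h, 3366 to 3917 at 48 h and 4753 to 4975 at 0 h. In both lists all arrays at 24 h and 48 h thus lay below those at 0 h, and those at 24 h and 48 h overlapped over both arms.

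Single neuronal genes went both ways. Hpca encodes hippocalcin, a calcium sensor of pyramidal cells, and read 2096 and 2271 units at 24 h and 1247 and 1866 at 48 h in SHAM, and 2309.8 and 2458 at 24 h and 1647 and 1667 at 48 h in TOL. It fell 1.42-fold with no overlap (log2 difference -0.52, SE 0.12, adjusted p = 0.0226), and at 0 h its mean had been 3603 ± 596 units. The call was lost when any 1 array other than SHAM 48 h replicate 2 was left out (adjusted p up to 0.0788). The vesicle proteins Syt4 and Stx1a and the cannabinoid receptor Cnr1 changed by -0.68, -0.34 and -0.33 (adjusted p = 0.0211, 0.0351 and 0.0377), and each was lost without most of the arrays in turn, including TOL 24 h replicate 2 and both TOL 48 h arrays (adjusted p up to 0.0963, 0.134 and 0.145). Map1a, a dendritic microtubule protein, rose 1.44-fold with overlapping arrays (adjusted p = 0.0315), and the call was lost when SHAM 24 h replicate 1, SHAM 48 h replicate 2, TOL 24 h replicate 1 or TOL 48 h replicate 1 was left out (adjusted p up to 0.125). The axonal neurofilament gene Nefl differed by 0.26 (adjusted p = 0.0703), although all 48 h arrays lay above the 24 h arrays. Snap25, Syp and Nrgn, which encode synaptic proteins, differed by -0.02, 0.08 and 0.06 (adjusted p = 0.969, 0.679 and 0.872).

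Of 25 GABA receptor and interneuron genes 1 fell (4% against 4.36% of all genes), Cck, and none rose. Cck encodes cholecystokinin, a peptide of one class of interneurons and of some pyramidal cells. It read 1065 and 966 units at 24 h and 551 and 487 at 48 h in SHAM, and 1061 and 1034 at 24 h and 661 and 796 at 48 h in TOL, all 48 h arrays lying below the 24 h arrays and the SHAM arrays lowest (log2 difference -0.75, SE 0.11, adjusted p = 0.000916). The step passed in SHAM (adjusted p = 0.0044) and not in TOL (0.106), and the difference between arms did not pass (adjusted p = 0.75). Gad1, the enzyme that makes GABA, differed by -0.02 (adjusted p = 0.955).

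Calcium signalling genes fell in 3 of 38 cases (7.89% against 4.36%) and rose in 1 (2.63% against 3.4%). Prkcb, a protein kinase C of principal neurons, read 1949 and 1653 units at 24 h and 1042 and 1076 at 48 h in SHAM, and 1593 and 1657 at 24 h and 1280.1 and 1286 at 48 h in TOL. It fell 1.46-fold (log2 difference -0.55, SE 0.08, adjusted p = 0.000901), from a 0 h mean of 2594 ± 281 units. Ppp3ca and Ppp3cb, catalytic subunits of the phosphatase calcineurin, fell 1.39-fold (adjusted p = 0.00837) and 1.52-fold (0.0344), the latter call being lost when any 1 array other than TOL 48 h replicate 1 was left out (adjusted p up to 0.117). Rgs4, a brake on G protein signalling in neurons, rose instead, from 303 ± 24 to 597 ± 83.6 units (log2 difference 0.97, SE 0.17, adjusted p = 0.00333). In these 4 genes the arrays of both times did not overlap. Ppp3ca lost its call with values as deposited or with the 8 arrays alone. Of 33 ion channel genes 2 potassium channels fell (6.06% against 4.36%) and none rose. The call of Kcnh1 (adjusted p = 0.0481) was lost when any 1 array other than TOL 48 h replicate 2 was left out (adjusted p up to 0.166), and Kcnj11 is described with the largest falls.

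**Figure D3:**
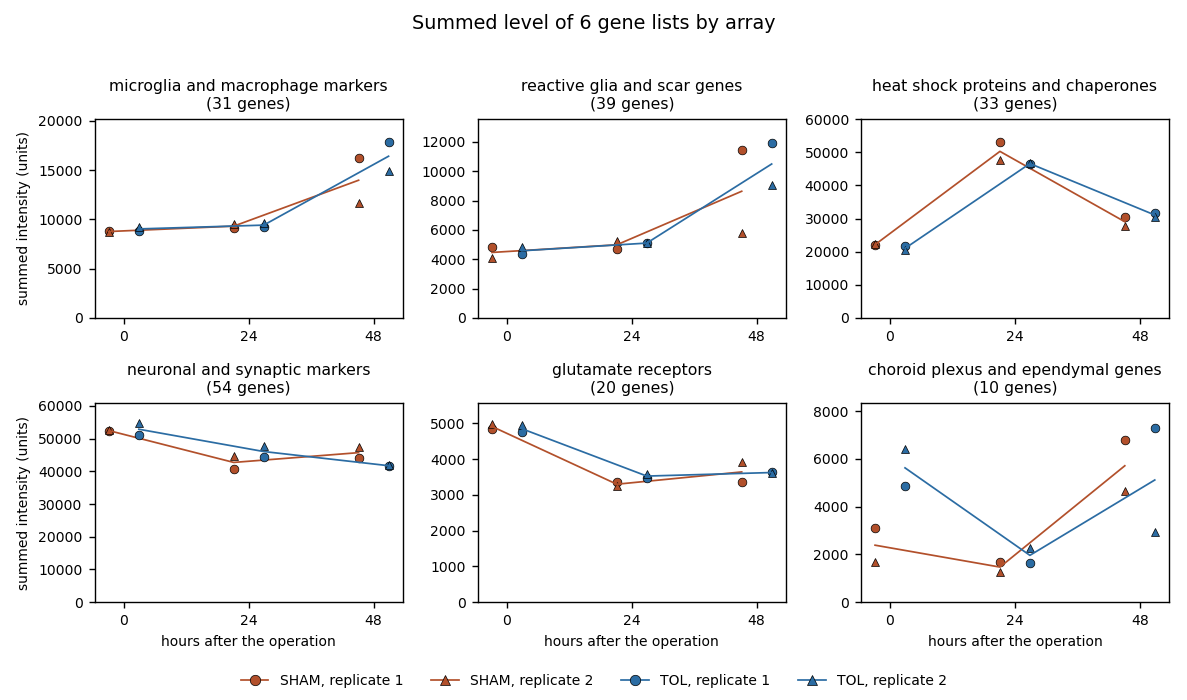
Summed normalised intensity (units, linear axis from 0) of the tested genes of 6 lists against hours after the operation, 1 point for each array (circles replicate 1, triangles replicate 2; SHAM red, TOL blue; lines join arm means). The microglial, reactive glial and chaperone sums at 48 h do not overlap those at 24 h, the neuronal and glutamate receptor sums do, and the neuronal sums at 24 h and 48 h all lie below those at 0 h.

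Activity genes fell in part. Of 43 immediate early genes 6 fell (14.0% against 4.36%) and 1 rose (2.33% against 3.4%). The median was 0.06, opposite in sign to most calls. Without 1 array there were 4 or 5 falls. The rise was that of Klf4, a transcription factor, and was lost when SHAM 48 h replicate 1, TOL 24 h replicate 1 or TOL 48 h replicate 1 was left out (adjusted p up to 0.0582). Arc, a synaptic gene switched on by neuronal activity, read 1093 and 1813 units at 24 h and 524 and 620.1 at 48 h in SHAM, and 1331 and 1754 at 24 h and 651 and 577 at 48 h in TOL. It fell 2.52-fold with no overlap (log2 difference -1.31, SE 0.24, adjusted p = 0.00505). Dusp6, a phosphatase that damps ERK signalling, fell 2.26-fold from 817 ± 144 to 362 ± 74.2 units (log2 difference -1.18, SE 0.14, adjusted p = 0.000259), to below its 0 h arrays. Ptgs2, the inducible cyclooxygenase, fell 1.80-fold and stayed above its 0 h arrays (log2 difference -0.84, SE 0.15, adjusted p = 0.00459). Its call was lost with values as deposited or with the 8 arrays alone. Klf10 was called (adjusted p = 0.0122) with overlapping arrays, 317 and 317 units in SHAM and 123 and 140.0 in TOL at 24 h, a call lost when SHAM 48 h replicate 1 was left out (adjusted p = 0.0502). The GTPase gene Rheb and the transcription factor gene Egr2 changed by -0.48 and -0.51, each call being lost without 5 or more arrays in turn (adjusted p up to 0.113 and 0.143). The classical members Fos and Egr1, named after their values were seen, differed by -0.11 and 0.07 (adjusted p = 0.858 and 0.938).

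Several of the largest falls lay outside the chaperone list. Per2, a repressor of the circadian clock, read 176 and 230.3 units at 24 h and 95.4 and 80.2 at 48 h in SHAM, and 241 and 223 at 24 h and 100.3 and 102 at 48 h in TOL. It fell 2.30-fold with no overlap (log2 difference -1.20, SE 0.18, adjusted p = 0.00127). Azi2, an adaptor of NF-kappaB and interferon signalling, fell 2.16-fold from 246 ± 21.6 to 114 ± 11.8 units (log2 difference -1.11, SE 0.11, adjusted p = 5.01e-05). Ate1, an arginyltransferase of protein degradation, fell 2.18-fold from 578 ± 66 to 266 ± 50 units (log2 difference -1.13, SE 0.22, adjusted p = 0.00757). Both had stood at lower levels at 0 h, 88.5 and 80.4 units for Azi2 and 191 and 189 for Ate1 in SHAM, and 61.5 and 71.5 and 214 and 181 in TOL.

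Zmat3, which encodes a zinc finger RNA-binding protein, fell 3.06-fold from 207 ± 71.5 to 67.7 ± 19.4 units (adjusted p = 0.0331), but its call was lost when any 1 array other than TOL 24 h replicate 2 was left out (adjusted p up to 0.13). The autophagy gene Eva1a, the mitochondrial gene Mtfr1 and Abracl fell 2.45-fold, 2.18-fold and 2.18-fold (adjusted p = 0.00695, 0.00276 and 0.00109), the first 2 with levels set to at least the noise level, which 1 and 2 of the 48 h arrays exceeded. Kcnj11, the pore of an ATP-sensitive potassium channel, read 60 and 119 units at 24 h and -21.1 and 12.6 at 48 h in SHAM, and 99.1 and 168 at 24 h and 8.3 and 47.4 at 48 h in TOL, and its call (adjusted p = 0.0388) was lost when any 1 array other than SHAM 48 h replicate 2 and TOL 48 h replicate 2 was left out (adjusted p up to 0.14). Mmp9, a matrix protease, was above the noise level on all 24 h arrays and on none at 48 h, at least 1.77-fold lower (adjusted p = 0.0316), and its call was lost when any 1 array other than SHAM 48 h replicate 2 was left out (adjusted p up to 0.116).

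Entpd2, in none of the lists, an ectonucleotidase of neural stem cells and astrocytes, read 103 and 72.8 units at 24 h and 276 and 301 at 48 h in SHAM, and 106 and 111 at 24 h and 258 and 284 at 48 h in TOL. It rose 2.85-fold with no overlap (log2 difference 1.53, SE 0.19, adjusted p = 0.000347), and 1 of its 2 probe sets was called. Alox5ap, a member of the cytokine and inflammation list that activates leukotriene synthesis in leukocytes, was below the noise level on all 24 h arrays and rose at least 2.50-fold (adjusted p = 0.00448), a call lost with the 8 arrays alone. Among 36 cytokine and inflammation genes 2 rose (5.56% against 3.4% of all genes), Alox5ap and the chemokine gene Ccl3, and 2 fell (5.56% against 4.36%), Ptgs2 and Mmp9. Ccl3 was below the noise level on all 8 arrays.

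Few genes of the metabolic and housekeeping lists were called. Of 25 hypoxia and glycolysis genes none rose and 2 fell (8% against 4.36%), although the median log2 difference was 0.21 and the list summed to 24465 to 26584 units at 24 h and 27045 to 28026 at 48 h. P4ha1, a collagen hydroxylase induced by hypoxia, fell from 731 ± 180.0 to 383 ± 32.5 units (log2 difference -0.91, SE 0.14, adjusted p = 0.00141), a call lost with the 8 arrays alone. Pfkfb2, a regulator of glycolysis, changed by -0.48 (adjusted p = 0.033), and its call was lost when any 1 array other than SHAM 24 h replicate 2, SHAM 48 h replicate 2 and TOL 24 h replicate 2 was left out (adjusted p up to 0.136). Of 23 cholesterol and lipid genes Idi1, an enzyme of isoprenoid synthesis, fell 2.03-fold (adjusted p = 0.00588), Scd, a fatty acid desaturase, fell and Fasn, the fatty acid synthase, rose. The falls made up 8.70% of that list (4.36% of all genes) and the rise 4.35% (3.4% of all genes). Of 23 proteasome genes Psme1, an interferon-induced activator subunit, rose 1.69-fold (adjusted p = 0.029), a call lost when any 1 array other than SHAM 24 h replicate 1, SHAM 24 h replicate 2 and TOL 48 h replicate 2 was left out (adjusted p up to 0.0875), and Psmc2, an ATPase subunit, fell. In the proteasome list the rise and the fall were each 4.35% of the genes. Of 49 oxidative phosphorylation genes Uqcr11 rose (2.04%), of 37 ribosomal protein genes Rpl11 rose (2.70%), and of 53 growth factor genes Igfbp2 rose (1.89%) and Cntf, which encodes ciliary neurotrophic factor, fell (1.89%). Over all genes 3.4% rose and 4.36% fell. The calls of Uqcr11, Rpl11 and Cntf (adjusted p = 0.0398, 0.027 and 0.0257) were lost without 5 or 6 of the arrays in turn (adjusted p up to 0.157, 0.106 and 0.0999). Of 21 endothelial genes 1 fell (4.76% against 4.36%), Tjp1, a tight junction protein, a call lost when any 1 of the 8 arrays was left out (adjusted p up to 0.0975). The calls of Scd, Fasn and Psmc2 were lost without 7 or 8 of the arrays in turn (adjusted p up to 0.146, 0.16 and 0.144). Of 14 oligodendrocyte genes none was called by limma, with 1 higher and 1 lower at an unadjusted p under 0.05 (14.3% against 20.9% of all genes). Of 19 apoptosis and p53 genes none was called, with 5 higher and 0 lower at that p (26.3% against 20.9% in either direction). Over all 4083 genes 400 were higher and 454 lower at that p. The apoptosis and p53 list summed to 5362 to 5762 units at 24 h and 5808 to 6366 at 48 h, with no overlap. At 0 h its sums had been 3823 to 4116 units, and no test was made of them.

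**Figure D4:**
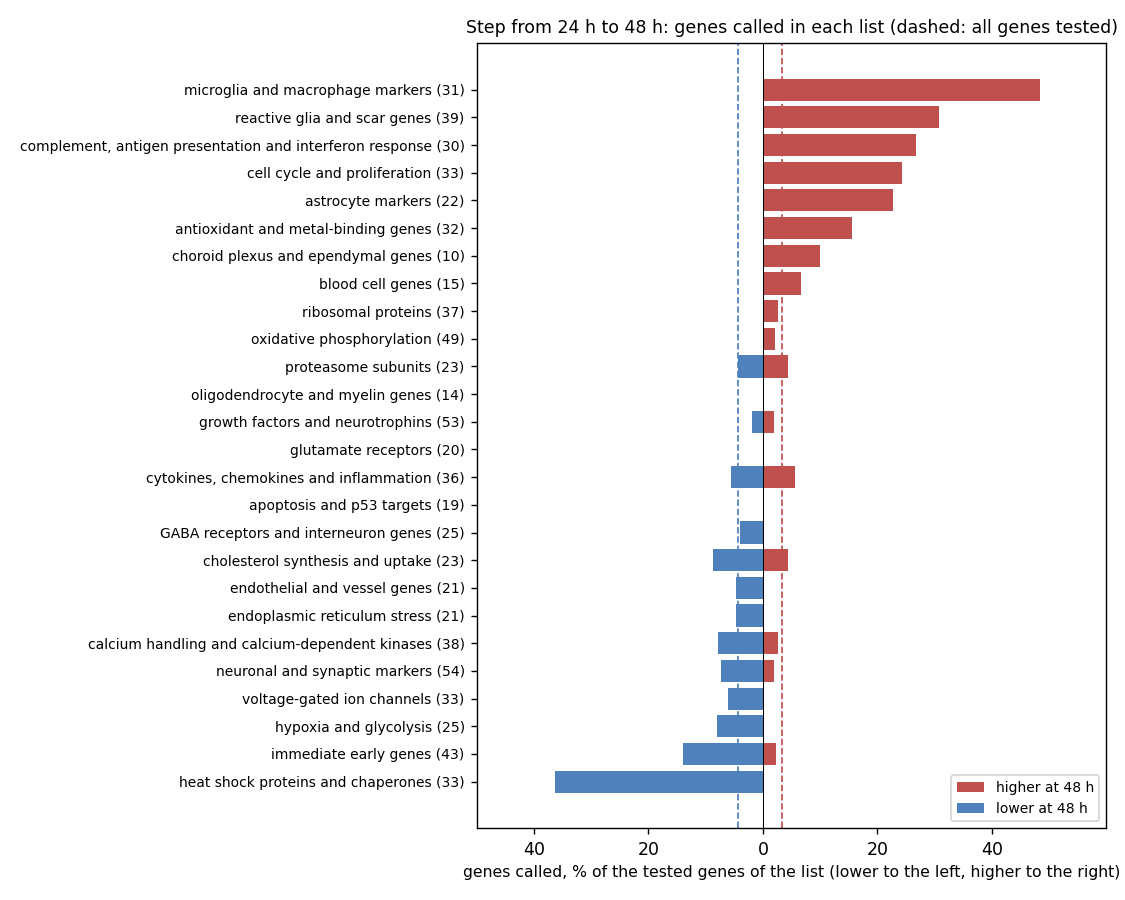
Share of the tested genes of each list (number tested in brackets) that rose (red, to the right) or fell (blue, to the left) from 24 h to 48 h, in % of the list, with dashed lines at the shares over all 4083 genes (3.4% and 4.36%). Microglial genes reach 48.4% higher and chaperones 36.4% lower, and the neuronal, channel and housekeeping lists lie near the dashed lines.

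In SHAM 53 genes rose (1.3%) and 70 fell (1.71%), and in TOL 47 rose (1.15%) and 38 fell (0.931%), each arm resting on 2 arrays at each time. Over probe sets, the 218 calls in SHAM (3.07%) became 82 without SHAM 24 h replicate 1, 96 without SHAM 48 h replicate 1 and 131 without SHAM 48 h replicate 2. The 153 calls in TOL (2.16%) became 55 without TOL 24 h replicate 1, 65 without TOL 24 h replicate 2 and 86 without TOL 48 h replicate 1. Kcnj10, the inward rectifier potassium channel of astrocytes, was the only gene of the 4 with a tested arm difference whose level passed the noise level. It read 124 and 124 units at 24 h and 91.7 and 115 at 48 h in SHAM, and -11.8 and -10.3 at 24 h and 72.5 and 54.1 at 48 h in TOL, so that the TOL arrays at 24 h stood apart from all others. The step of TOL minus that of SHAM was 4.44 on the log2 scale (SE 0.57, adjusted p = 0.00203), with the size set by the floor under the low TOL values. Its other probe set was not called.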

How the data were processed

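Total RNA of rat hippocampus was hybridised to Affymetrix rat U34 A arrays. The authors deposited 1 background-subtracted intensity per probe set and array on a linear scale, with software and scaling not given in the sources used here. From the 8799 probe sets 59 controls were left out. The values of all 24 arrays were quantile normalised, set to a floor at the 25th percentile (3.49 units) and transformed to log2. Testing was limited to probe sets that exceeded the floor in both arrays of 1 group or more (7092 probe sets, 4083 genes). R 4.3.3 and limma 3.58.1 fitted 12 group means with eBayes (residual df 12), and the step was 48 h minus 24 h averaged over both arms, in each arm, and as TOL minus SHAM, with Benjamini-Hochberg adjustment over all probe sets. The number of arrays limits the precision.

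Symbols came from the platform annotation, updated through Entrez identifiers to RefSeq (GRCr8), for the 7018 probe sets with 1 symbol, while 308 had several and 1473 none. For each gene the brightest tested probe set was used. The noise level was the 99th percentile over the values of 1957 probe sets with a mean of 0 or less. Folds are ratios of group means, with means (or, where stated and in lower bounds, single arrays of the dimmer time) set to at least this level. Inferred fluidics runs are arrays whose recorded times lie within 5 minutes.

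The genes named were drawn from the 15 largest rises and 15 largest falls among called genes without overlap, up to 6 members per list by smallest p, all called list members, the defining cell type markers and the 6 smallest p of the arm difference. Exceptions are stated where they occur, and Hspb1, Hspa5 and Serpinh1 were also named after their values were seen. The members and lists were chosen with earlier results of these data known. The fit was tested on simulated data, in which probe sets were changed by 1 or 2 on the log2 scale between 24 h and 48 h. It called 48% of those changed by 1 and 81% of those changed by 2, with 9 false calls among 138. A gene that did not pass may thus still have changed. Promoter searches and figures used Python 3.11.15 with pandas 2.3.3 and matplotlib 3.10.9. Alternatives covered normalisation, floor, filter, arrays in the fit, moderation, hybridisation day, run, replicate block and each array left out.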

Additional observations from a re-analysis of the deposited data

Results flagged for a closer look

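The step from 24 h to 48 h differed between the arms by the test of the difference in 10 probe sets, against 486 at an unadjusted p under 0.05. By gene, TOL minus SHAM was 4.44 on the log2 scale for Kcnj10, 1.86 for the chemokine gene Ccl3, -2.16 for the endothelin gene Edn2 and -2.41 for the stress gene Nupr1. Ccl3, Edn2 and Nupr1 lay below the noise level on all 8 arrays, so the sizes rest on values near the floor. Kcnj10 read below 0 on both TOL arrays at 24 h and above the noise level on the other 6. Leaving out 1 array at a time gave 14 to 35 such probe sets.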

How the results depend on the processing

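The both-arm step held 536 called probe sets, SHAM 218, TOL 153 and the arm difference 10. With values as deposited these were 150, 48 and 49 for the first 3, with 56.2% of the SHAM calls higher against 45.0%. With only the 8 arrays at 24 and 48 h they were 206, 52, 41 and 24, and with an additive model on these arrays 176 for both arms; fewer arrays leave fewer residual degrees of freedom. The arm difference was 6 with a floor at the 40th percentile, 1 with only probe sets above the noise level and 2 with trend and robust moderation. SHAM was 132 with hybridisation day as a block and 130 on the first day alone, and TOL was 44 on the second day alone. A floor at the noise level, chosen after seeing the data, gave 337 in SHAM. Where no value shows it, the cause was not tested. Without 1 array the counts were 281 to 547, 82 to 293, 55 to 171 and 14 to 35. A replicate block on the experiment numbers, which did not pair the samples (r of deviations -0.0579 to 0.0916), gave 513, 215, 141 and 11. With median scaling, 4 of 10 arm difference calls were higher against 5 of 10. Chaperone falls were 8 with values as deposited or with 8 arrays and 10 with day as a block, while microglial rises were 6, 4 and 15 and reactive glial rises 5, 1 and 10. Of 104 named genes called, none changed sign under any alternative, 85 were still called with median scaling, 45 as deposited, 35 with 8 arrays and 62 to 83 without 1 array. Signal limits genes below the noise level, where only bounds are given.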

Other observations

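Bdnf, the gene of brain-derived neurotrophic factor, was singled out after its values were seen, because its 7 tested probe sets disagreed. Its brightest probe set differed by 0.03 on the log2 scale (adjusted p = 0.938), while 2 dimmer ones rose by 0.93 (adjusted p = 0.0199) and 1.11 (adjusted p = 0.0375). Gria1, an AMPA receptor subunit chosen in the same way, differed by 0.14 on its brightest probe set (adjusted p = 0.799) and by -1.07 on 1 of 3 (adjusted p = 0.0206), which lay below the noise level on all 8 arrays. Among called probe sets, 99 had no single gene symbol, of which 89 had a mean above the noise level. The largest rise among these was 7.33-fold and the largest fall 7.96-fold, and they are not named here.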
